A study of Mus musculus with 14 samples.

Results

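The 200-bp bins that tile the Hoxc and Hoxd clusters of the mouse genome were described in the DNA bound by 2 histone marks, H3K4me1 and H3K27ac. Members were chosen by position alone in build mm9: the 140 kb of chr15 that start at position 102740001 for Hoxc (700 bins) and the 130 kb of chr2 that start at 74490001 for Hoxd (650 bins). These were 1350 bins beside 7282466 listed in any library, and 552 bins of Hoxc and 553 of Hoxd held a CpG count in at least 1 library, which left 148 and 97 without any. The highest chr1 bin in the files ended at 197192400, past the end of that chromosome in later builds.

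Hox genes encode homeodomain transcription factors that give cells their position along the body axis. They lie in compact clusters, and their order along the chromosome follows the order in which they are switched on and the place where they act (collinearity): the genes with low numbers are switched on first and act toward the head, those with high numbers last and toward the tail. Retinoic acid, a vitamin A derivative that binds nuclear receptors, switches on Hox genes from the low-numbered end. In embryonic stem cells (ESCs) the clusters are CpG-rich, held by Polycomb proteins and largely free of CpG methylation (5mC). H3K27ac is found where enhancers and promoters are in use, H3K4me1 over a wider set of enhancers, in use or not, and 5mC mostly over DNA that is silent.

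ChIP-BS-seq isolates nucleosomes with an antibody to a mark and reads 5mC in their DNA after bisulfite treatment. All cells came from R1, a male mouse ESC line carrying no transgene named in the labels. The ESC libraries came from cells kept for 2 days in serum medium with LIF after removal of 2i, the pair of MEK and GSK3 inhibitors. The RA libraries came from cells given 1 µM retinoic acid for 4 days in 10% serum without LIF. The XEN libraries came from cells driven toward extraembryonic endoderm for 9 days with 0.1 µM retinoic acid and 10 ng/mL activin A in 15% serum. RA and ESC cultures thus differed in LIF, serum and days as well as in retinoic acid, and these cannot be told apart. There was 1 library per mark in ESC and RA and 2 per mark in XEN, so that ESC and RA differences have no replicate check and their tests compare 2 libraries, not 2 cell states. The depth was 32305709 to 58803653 CpG counts in ESC and RA libraries and 12147115 to 31345707 in XEN libraries. Reads of mixed CpG state had been removed, so CpGs of 1 read share their state. The intervals and Fisher's exact tests below take each CpG count as independent and may therefore understate even counting error. In bulk cells, fewer cells with a mark and less of the mark per cell cannot be told apart. The files pair no bin with a gene and no table of named transcripts was used, so cell type markers were not checked and the results are given by distance from the low-coordinate end of each region.

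In the RefSeq annotation of build GRCm38.p6, used only for gene order, Hoxc runs with rising coordinate through Hoxc13, Hoxc12, Hotair, Hoxc11, Hoxc10, Mir196a-2, Hoxc9, Hoxc8, Hoxc6, Hoxc5, Mir615 and Hoxc4. Hoxd runs from Evx2, a homeobox neighbour, through Hoxd13, Hoxd12, Hoxd11, Hoxd10, Hoxd9, Hoxd8, Hoxd3, Hoxd4, Mir10b and Hoxd1 to Mtx2. The low-coordinate end of each region is therefore the end of the high-numbered, tail-side genes.

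The counts exist only where there are CpGs, and the starts of these genes differ in how many they hold. RefSeq promoter sequences (GRCm38.p6) matched 1 of 9 Hoxc genes and 9 of 9 Hoxd genes, with 11 promoters in all. In the 250 bases before the listed start, these 11 promoters held 2 to 31 CpGs with a median of 12, against a median of 6 over 32851 promoters. To let this spread be seen, 1 from Hoxc and 3 from along Hoxd are shown, each 5′ to 3′ on the plus strand with every CpG in capitals. They are the starts of Hoxd13 at the tail-side end (chr2:74667975-74668224, 31 CpGs), Hoxd4 (chr2:74721728-74721977, 3 CpGs), Hoxd1 at the head-side end (chr2:74762730-74762979, 24 CpGs) and Hoxc4 (chr15:103034145-103034394, 8 CpGs).
Hoxd13: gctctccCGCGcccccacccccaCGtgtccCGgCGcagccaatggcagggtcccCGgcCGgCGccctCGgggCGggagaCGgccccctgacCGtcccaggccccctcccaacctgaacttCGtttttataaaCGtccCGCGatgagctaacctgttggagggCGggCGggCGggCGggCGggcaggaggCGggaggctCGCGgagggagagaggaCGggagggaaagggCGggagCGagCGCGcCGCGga
Hoxd4: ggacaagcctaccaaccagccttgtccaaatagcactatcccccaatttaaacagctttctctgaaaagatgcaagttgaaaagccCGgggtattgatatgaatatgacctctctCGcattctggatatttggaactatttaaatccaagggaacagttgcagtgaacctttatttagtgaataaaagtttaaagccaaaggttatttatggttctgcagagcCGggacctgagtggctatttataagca
Hoxd1: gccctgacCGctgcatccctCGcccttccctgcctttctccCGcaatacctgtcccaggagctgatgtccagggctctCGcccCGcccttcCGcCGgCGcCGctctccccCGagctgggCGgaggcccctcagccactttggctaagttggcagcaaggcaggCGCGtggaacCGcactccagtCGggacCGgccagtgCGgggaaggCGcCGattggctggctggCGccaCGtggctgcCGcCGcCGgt
Hoxc4: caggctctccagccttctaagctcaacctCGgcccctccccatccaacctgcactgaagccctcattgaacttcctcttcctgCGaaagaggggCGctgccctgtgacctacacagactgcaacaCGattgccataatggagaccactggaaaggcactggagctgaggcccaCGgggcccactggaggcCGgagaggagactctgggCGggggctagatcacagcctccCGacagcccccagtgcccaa
The Hoxd13 and Hoxd1 starts carry CpGs along the whole window, and that of Hoxd4 has few, so that a read there offers fewer CpGs to count. Coordinates of the bins below are of mm9 and are not comparable with these.

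In ESCs both clusters were low in 5mC in both marks. Pooled over Hoxc, 5mC was 11.59% of 19044 CpG counts in the H3K4me1 library (95% interval 11.14 to 12.06, exact Clopper-Pearson, which covers counting error only) and 8.844% of 3720 in the H3K27ac library (7.951 to 9.803). Over Hoxd it was 11.15% of 16627 counts (10.68 to 11.64) and 8.053% of 3154 (7.127 to 9.058). The whole genome stood at 38.6% in H3K4me1 and 32.96% in H3K27ac. DNA of the same length on either side was also more methylated, with 46.83% and 23.19% in H3K4me1 on the low- and high-coordinate sides of Hoxc and 37.74% and 48.63% beside Hoxd. Of bins with at least 30 counts in the H3K4me1 library of ESCs, 188 of 219 in Hoxc (85.84%) and 174 of 202 in Hoxd (86.14%) were under 20% 5mC, against 35.09% of 578342 bins of the genome. In the H3K27ac library all 30 such bins of Hoxc and all 24 of Hoxd were under 20%, against 81.8% of the genome. The longest unbroken stretch of H3K4me1 bins under 20% ran for 3400 bp in Hoxc (chr15:102784401-102787800, 1.926% of 1402 counts) and for 1800 bp in Hoxd (chr2:74524601-74526400, 4.1% of 561 counts).

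In the RA libraries, 5mC in H3K4me1-bound DNA was higher over both clusters. Over Hoxc it was 32.61% of 11573 counts (31.76 to 33.47), 21.02 percentage points (points from here on) above ESCs, and over Hoxd 27.5% of 8464 (26.56 to 28.47), 16.35 points above. The genome as a whole was 16.23 points higher, at 54.83%. Both clusters thus stayed below the genome, and in these pooled values Hoxd moved by about as much as the genome and Hoxc by more. The flanks moved by 13.84 and 19.62 points beside Hoxc and by 5.418 and 16.95 points beside Hoxd. H3K27ac-bound DNA moved less, from 8.844% to 13.46% of 5899 counts over Hoxc (12.6 to 14.36, 4.616 points higher) and from 8.053% to 15.64% of 2589 over Hoxd (14.26 to 17.1, 7.59 points higher), beside 5.712 points over the genome. When the same bins were weighed alike in both libraries (Mantel-Haenszel difference over bins), the H3K27ac differences were 7.606 and 5.105 points. Over only the bins with at least 30 counts in both libraries they were 0.2706 points for Hoxc and −1.79 points for Hoxd, so the sign of the Hoxd value turned.

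Bin by bin, most H3K4me1 differences went one way, in the clusters as over the genome. Each bin with at least 30 counts in both libraries that overlapped an H3K4me1 peak was tested by Fisher's exact test (two-sided), with Benjamini-Hochberg adjustment over all 204685 such bins of the genome. The RA value was the higher in 90.91% of the tested bins of Hoxc and 92.94% of those of Hoxd, beside 86.17% of the genome. In Hoxc 67 of 110 tested bins were higher in RA at an adjusted p under 0.05 and in Hoxd 45 of 85, against a genome background of 47.8% higher. None was lower in either cluster (background 1.84%), and at an unadjusted p under 0.05 it was 69 and 49 bins higher and 0 lower. The median bin went from 3.227% to 20.22% in Hoxc (median difference 15.65 points) and from 3.125% to 16.36% in Hoxd (12.12 points), and over the genome from 19.61% to 44.44% (17.4 points). The share of bins called is thus somewhat above the background in Hoxc and near it in Hoxd, with a smaller median difference in both. Differences over 20 points were held by 38.18% of the tested bins in Hoxc and 24.71% in Hoxd, against 44.84% of the genome.

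**Figure D1:**
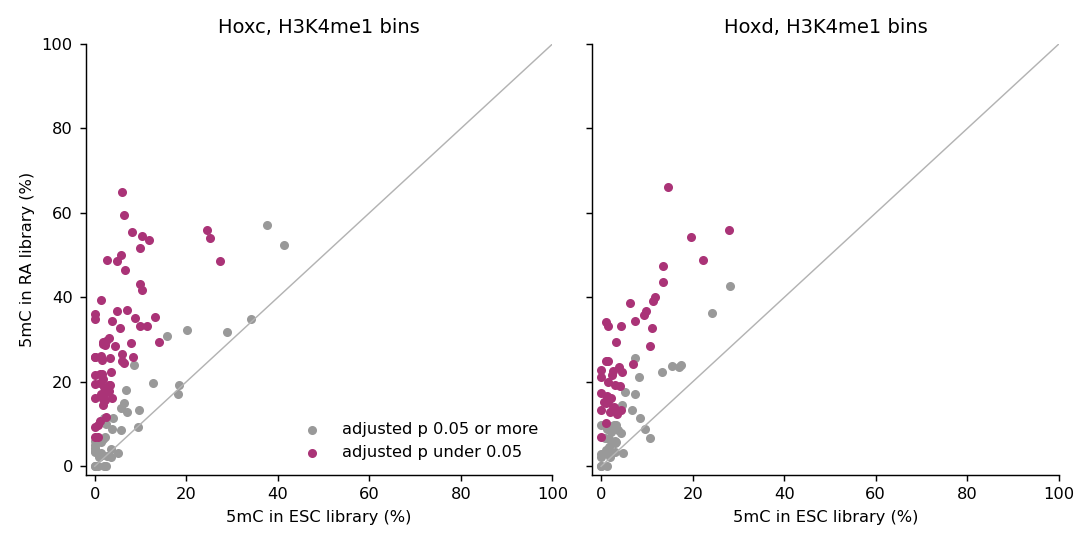
5mC of each tested H3K4me1 bin in the ESC library (x axis, percent) and the RA library (y axis, percent), 110 bins in Hoxc and 85 in Hoxd, with bins at an adjusted p under 0.05 in purple and others in grey and the line of equal values. Most points lie above the line and start from low values, with 67 purple bins in Hoxc and 45 in Hoxd, none below the line.

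Many unmethylated bins nevertheless stayed so. Of 102 tested Hoxc bins under 20% in ESCs, 55 (53.92%) were still under 20% in the RA library and 25 (24.51%) were over 30%. In Hoxd 49 of 81 (60.49%) stayed under 20% and 14 (17.28%) passed 30%. Over the genome 43.13% of 102983 such bins stayed and 40.82% passed 30%. Taking all bins with at least 30 counts in a library by itself, those under 20% fell to 57 of 130 in Hoxc (43.85%) and 53 of 94 in Hoxd (56.38%), beside 16.94% of the genome. In the H3K27ac library of RA cells the same count was 50 of 54 in Hoxc and 25 of 25 in Hoxd, beside 61.55% of the genome. The longest H3K4me1 stretch of ESCs in Hoxc had 14.71% of 816 counts in the RA library, with 9 of its 12 bins of at least 30 counts under 20%, and that in Hoxd had 20.33% of 364 counts, with 3 of 7. The longest stretch in the RA library was 1000 bp in Hoxc (chr15:102844201-102845200, 2.242% of 223 counts) and 1200 bp in Hoxd (chr2:74497001-74498200, 10.97% of 401 counts). A stretch also ends at any bin under 30 counts, and fewer bins reached 30 in the RA library, so its length is not comparable between the libraries.

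The largest rises in single bins lay toward both ends of Hoxc and beyond 60 kb in Hoxd. At 18.4 kb in Hoxc (chr15:102758401-102758600) 5mC went from 5.97% of 67 counts to 64.86% of 37 (58.89 points, adjusted p = 3.92e-09, Fisher's exact test, Benjamini-Hochberg adjusted). At 132.2 kb (chr15:102872201-102872400) it went from 6.349% of 63 counts to 59.52% of 42 (53.17 points, adjusted p = 4.30e-08, Fisher's exact test). At 131.6 kb (chr15:102871601-102871800) it went from 8.219% of 73 counts to 55.56% of 36 (47.34 points, adjusted p = 1.53e-06, Fisher's exact test). The H3K27ac library had 34 counts with none methylated in this bin in ESCs, and 7 of 10 methylated in RA cells, too few for the test. In Hoxd the largest rise was at 100.4 kb (chr2:74590401-74590600), from 14.58% of 48 counts to 66.04% of 53 (51.45 points, adjusted p = 1.25e-06, Fisher's exact test). It was followed by the bin at 97.2 kb (chr2:74587201-74587400), from 19.54% of 87 counts to 54.35% of 46 (34.81 points, adjusted p = 3.23e-04, Fisher's exact test). The third bin, at 61.4 kb (chr2:74551401-74551600), went from 13.43% of 67 counts to 47.5% of 40 (34.07 points, adjusted p = 8.00e-04, Fisher's exact test). All 3 Hoxd bins lay in H3K4me1 peaks of both states and held at most 11 H3K27ac counts in either state.

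H3K27ac bins gave no call. With at least 30 counts in both libraries and a peak, 15 bins of Hoxc and 3 of Hoxd could be tested, and none was higher (background 13.8% of 81132 bins) or lower (1.06%). By Fisher's exact test none reached an unadjusted p under 0.05 either. The differences lay between −3.39 and 7.674 points in Hoxc and between −2.381 and 3.704 points in Hoxd. The medians of the Hoxc bins were 1.0% in ESCs and 1.98% in RA cells. Differences in shallower bins were not detectable bin by bin at this depth.

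The 10-kb windows showed the higher H3K4me1-bound 5mC along the tested length of both clusters. For windows with at least 100 counts in both libraries, pooled counts were compared by Fisher's exact test and adjusted (Benjamini-Hochberg) over all such windows of the genome, a view added after the data had been seen. In H3K4me1, 14 of 14 windows of Hoxc and 12 of 12 of Hoxd were higher in RA (background 70.8% of 80163 windows higher, 1.65% lower), by 9.38 to 35.92 points in Hoxc and 9.696 to 29.15 points in Hoxd. The smallest pooled Hoxc rise was at 40 to 50 kb, from 9.147% of 1946 counts to 18.53% of 896. The largest was at 130 to 140 kb, at the head-side edge, from 20.85% of 662 to 56.76% of 377. Where the same bins were weighed alike, the rise was 4.247 to 33.67 points in Hoxc and 10.49 to 22.33 points in the tested windows of Hoxd, all in the same direction. The smallest Hoxc window was then that at 120 to 130 kb, with 4.247 points matched against 14.21 points pooled. It was followed by the window at 70 to 80 kb, with 10.68 matched against 20.19 pooled, and the window at 40 to 50 kb had 14.74. In Hoxd the levels in the RA library were 16.36% to 25.72% in the first 6 windows (0 to 60 kb) and 30.72% to 41.62% in the next 6 (60 to 120 kb). The tail-side windows of Hoxd were already the lower ones in ESCs, at 4.987% to 9.361% against 10.24% to 22.93%.

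In H3K27ac, 6 of 13 windows of Hoxc and 6 of 11 of Hoxd were higher in RA (background 44.8% of 52121 windows) and 1 Hoxc window was lower (background 5.5%). The highest was again the window at 130 to 140 kb of Hoxc, from 15.82% of 177 counts to 53.85% of 117 (38.03 points, adjusted p = 6.78e-11, Fisher's exact test). Next to the H3K4me1 rise there of 35.92 points, both marks moved alike in this window. At 60 to 70 kb H3K27ac-bound 5mC went from 4.779% of 272 counts to 28.87% of 239. The lower window was at 30 to 40 kb, from 13.95% of 172 counts to 5.198% of 481 (−8.756 points, adjusted p = 1.66e-03, Fisher's exact test). Weighed over the 17 bins with counts in both libraries, that difference was 4.068 points in the other direction, so the lower pooled value depended on which bins held the reads.

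**Figure D2:**
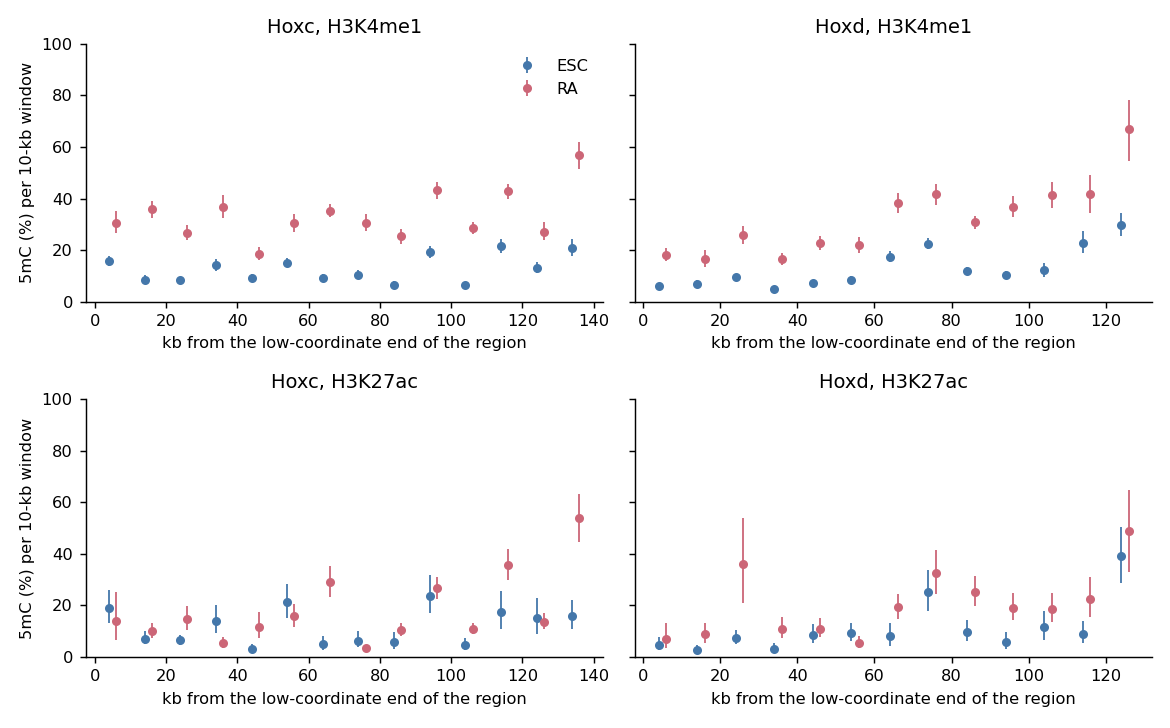
5mC (percent, with exact 95% intervals for counting error) in 10-kb windows along Hoxc and Hoxd, by distance in kb from the low-coordinate end, for the ESC library (blue) and the RA library (red) of each mark, windows under 100 counts included. Red H3K4me1 points lie above blue ones in all 14 Hoxc and 12 tested Hoxd windows, while in H3K27ac several windows overlap and the Hoxc window at 130 to 140 kb stands highest, at 53.85%.

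H3K27ac signal differed between the ESC and RA libraries along Hoxc and less over Hoxd as a whole. As a share of a library's CpG counts, H3K27ac over Hoxc went from 114.1 to 182.6 (CPM, counts in every 1000000 of the library) (log2 ratio 0.68), and over Hoxd from 96.78 to 80.14 (−0.27). H3K4me1 was lower in RA in both, over Hoxc from 323.9 to 245.3 (−0.40), and in Hoxd from 282.8 to 179.4 (−0.66). These are library shares with no replicate. In Hoxc the lower H3K4me1 share was all in unmethylated counts (log2 ratio −0.79) while methylated counts were higher (1.09), and in Hoxd the values were −0.95 and 0.65.

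The H3K27ac difference in Hoxc lay in its head-side 70 kb. Split after the values had been seen, the high-coordinate 70 kb went from 42.01 to 123.1 CPM (log2 ratio 1.55, 2.93-fold), and the low-coordinate 70 kb from 72.14 to 59.53 (−0.28). The DNA beyond the high-coordinate end was also more acetylated in RA (log2 ratio 1.16, 2.228-fold), and that beyond the low-coordinate end was not (−0.20). In Hoxd neither side was higher, with log2 ratios of −0.40 and −0.04 for the low- and high-coordinate 65 kb. In ESCs, then, more of the acetylation of Hoxc lay on the tail side, and in RA cells more of it lay on the head side.

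By window, 7 of 14 Hoxc windows had over 2-fold more H3K27ac signal in RA (background 16.2% of 86546 windows) and 3 had over 2-fold less (19.5%). The 7 were the window at 30 to 40 kb and the 6 from 70 to 130 kb, and the 3 were at 0 to 10, 20 to 30 and 40 to 50 kb. The window at 120 to 130 kb went from 113 to 536 counts (3.467 to 16.59 CPM, log2 ratio 2.26). That at 70 to 80 kb went from 269 to 1067 counts (8.254 to 33.03 CPM, 2.00). That at 40 to 50 kb, which held the longest unmethylated stretch of ESCs, went from 511 to 180 counts (15.68 to 5.572 CPM, −1.49). In Hoxd 0 of 12 windows were over 2-fold higher and 2 were lower. One of the lower ones, at 20 to 30 kb, went from 368 counts to 36 (11.29 to 1.114 CPM, log2 ratio −3.34), and the other was at 0 to 10 kb (337 to 128 counts, −1.38). In H3K4me1, 0 windows of either cluster were over 2-fold higher (background 26.9% of 126703 windows) and 2 of 14 in Hoxc and 2 of 13 in Hoxd were lower (26.2%).

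Signal was also counted in single bins. With at least 30 counts in either library, 39 of 69 Hoxc bins were over 2-fold higher in H3K27ac in RA and 13 over 2-fold lower, and in Hoxd 11 and 12 of 39 (backgrounds 31.9% and 30.7%). In H3K4me1 it was 17 higher and 86 lower of 239 in Hoxc and 8 higher and 100 lower of 210 in Hoxd (backgrounds 26.4% and 39.6%). A bin could enter through a high count in a single library, so its 2-fold call follows in part from that choice. In H3K27ac, 54 Hoxc bins reached 30 counts in RA cells and 30 bins in ESCs, but only 15 did so in both. The genome backgrounds followed the same rule. Under it, the shares of higher H3K4me1 bins were 7.113% in Hoxc and 3.81% in Hoxd. The share of Hoxc bins with over 2-fold more H3K27ac was 56.52%. Because of the choice of bins, these shares cannot show by themselves that signal differed.

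**Figure D3:**
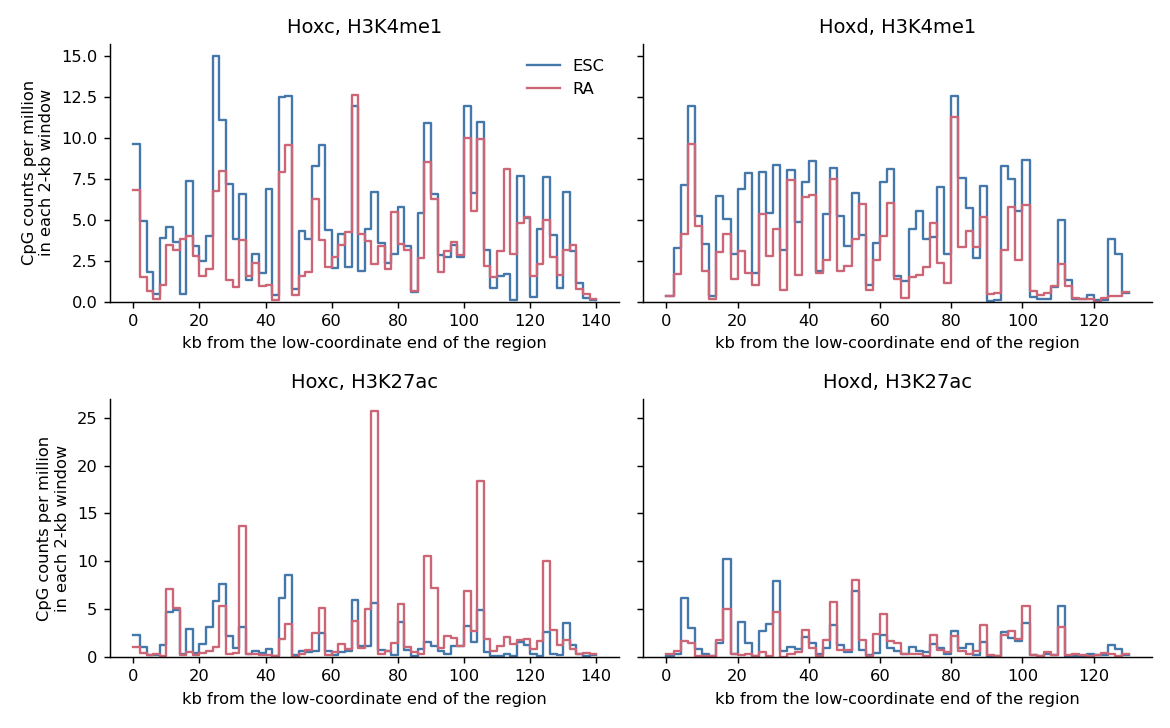
CPM (CpG counts scaled to the same library total) of each library in 2-kb windows along Hoxc (left) and Hoxd (right), by distance in kb from the low-coordinate end, for H3K4me1 (top) and H3K27ac (bottom), ESC in blue and RA in red. In the H3K27ac panel of Hoxc the red line stands above the blue in most high windows beyond 70 kb, with its highest window at 72 to 74 kb (25.661 CPM, against 8.531 for the highest ESC window, at 46 to 48 kb).

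The authors' peaks were counted as well. Hoxc held 11 H3K27ac peaks in ESCs and 19 in RA cells, covering 12.38% and 27.49% of the region, and 12 of the 19 overlapped no ESC peak, against 45.8% of all 102600 H3K27ac peaks of RA cells. The covered length in the high-coordinate 70 kb went from 5.6 to 29.4 kb and in the low-coordinate 70 kb from 11.7 to 9.1 kb. The peak with the highest score in RA was chr15:102827762-102831895 (score 63.8, rank 18807 of 102600 in its list), followed by chr15:102811008-102813357 (60.2). In Hoxd 6 H3K27ac peaks of ESCs and 4 of RA cells covered 5.938% and 4.218%, and none of the 6 overlapped any of the 4, while 45.4% of all 100469 H3K27ac peaks of ESCs overlapped no RA peak. The 2-kb window of Hoxd with the most H3K27ac counts in RA cells, at 52 to 54 kb with 261 counts, held none of the 4. H3K4me1 peaks covered 70.83% and 62.25% of Hoxc (29 and 25 peaks) and 65.08% and 32.17% of Hoxd (24 and 20 peaks). In Hoxd this was 84.6 and 41.8 kb.

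The Hoxc bin with the most H3K27ac counts was the same in both states and nearly unmethylated in both. At 72.2 kb (chr15:102812201-102812400) the H3K27ac library held 100 counts in ESCs, of which 1 was methylated, and 314 in RA cells, of which 3 were methylated (0.9554%, 0.1975 to 2.767). The bin before it (chr15:102812001-102812200) went from 37 to 268 counts, with none methylated in either. Their H3K4me1 counts went the other way, from 138 to 16 and from 133 to 43, also with none methylated. Both lay in an H3K27ac peak in each state. Another strongly acetylated bin of ESCs, at 27.4 kb (chr15:102767401-102767600), kept about as many counts, 88 and 80, and stayed at 2.273% and 0%. In Hoxd the bin with the most H3K27ac counts in ESCs, at 16.8 kb (chr2:74506801-74507000), went from 105 counts with none methylated to 28 with 1 methylated. The bin beside it (chr2:74506601-74506800) went from 96 counts to 13, none methylated. Both were chosen for their counts in ESCs, so fewer counts in RA cells follow in part from the choice, as the reverse does for bins chosen in RA cells. The remaining counts could show no difference in 5mC. In RA cells the most acetylated Hoxd bins were at 53.2 kb (chr2:74543201-74543400, 82 counts in each state, 10.98% methylated in ESCs and 0% in RA cells) and at 46.0 kb (chr2:74536001-74536200, 19 and 71 counts, none methylated).

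The bins with the most H3K4me1 counts behaved differently from one another. At 24.4 kb of Hoxc (chr15:102764401-102764600) counts went from 164 to 22 and 5mC from 10.37% to 59.09%. At 105.6 kb (chr15:102845601-102845800) counts were 142 and 140 while 5mC went from 1.408% to 17.14%. At 112.0 kb (chr15:102852001-102852200) counts went from 73 to 161 with 5mC at 34.25% and 34.78%. The bin at 3.6 kb (chr15:102743601-102743800) went from 172 to 47 counts, with 6.395% and 14.89%. In Hoxd the bin at 80.8 kb (chr2:74570801-74571000) was among the deepest in both states, with 161 and 120 counts and 4.348% and 13.33%. Its neighbour at 81.4 kb (chr2:74571401-74571600) held 135 and 116 counts and stayed at 2.963% and 3.448%. At 27.6 kb (chr2:74517601-74517800) counts went from 164 to 92 and 5mC from 0.6098% to 15.22%. Higher 5mC was thus seen in bins with far fewer counts in RA cells and in bins with about as many. These bins were chosen for their counts in ESCs or in RA cells, so a fall or rise in counts follows in part from the choice. The counts are also not scaled to the library totals, which were 58803653 in ESCs and 47177841 in RA cells. Whether higher 5mC went with a lower H3K4me1 signal therefore cannot be told from them.

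Within RA H3K27ac peaks, H3K4me1-bound DNA of Hoxc was less methylated than outside them. The 53 tested bins inside such peaks had a median of 16.13% in RA (median difference from ESCs 12.13 points, 30 or 56.6% called higher), and the 57 outside had 26.67% (19.41 points, 37 or 64.91% called higher). In Hoxd the order was the other way, 23.27% in 10 bins inside and 15.15% in 75 outside. The genome had 45.28% inside and 40.82% outside, with median differences of 17.88 and 15.8 points and 48.65% and 44.16% of the bins called higher. These are descriptions with no test, since bins of 1 library are not replicates.

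The 2 marks were then compared within each cell state, the question the study's method was made for: whether DNA of the same place differs in 5mC with the mark that was pulled down. In ESCs, bins in peaks of both marks with at least 30 counts in each were compared first. Their 5mC in H3K4me1 minus that in H3K27ac ranged from −15.79 to 8.219 points in Hoxc and from −2.331 to 1.37 points in Hoxd. In Hoxc 0 of 24 and in Hoxd 0 of 9 such bins differed by over 20 points (backgrounds 1.36% with H3K4me1 higher and 1.03% with H3K27ac higher). By Fisher's exact test 1 of the Hoxc bins had an unadjusted p under 0.05, with H3K27ac higher, and 0 of the Hoxd bins. In RA cells 1 of 28 Hoxc bins and 1 of 4 Hoxd bins had H3K4me1 over 20 points higher (background 4.64%) and 0 had H3K27ac higher (0.604%). Neither of these bins reached an adjusted p under 0.05 by Fisher's exact test (lowest adjusted p 0.0634 in Hoxc and 0.362 in Hoxd). By the same test, 3 of the 28 Hoxc bins and 1 of the 4 Hoxd bins had an unadjusted p under 0.05, each with H3K4me1 higher. In RA cells H3K4me1 was the higher mark in 24 of the 28 Hoxc bins and in 4 of 4 Hoxd bins, by a median of 3.579 and 11.75 points, beside 3.067 points over the genome, where H3K4me1 was the higher in 66.06% of 95406 bins.

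Pooled over 10-kb windows the marks lay farther apart in RA cells. With at least 100 counts in each mark, the difference was −6.123 to 6.212 points over 14 Hoxc windows in ESCs and 2.918 to 31.61 points over 13 in RA cells, with medians of 1.65 and 14.64 points. In Hoxd it was −2.476 to 14.07 points over 12 windows and 5.394 to 22.53 points over 11. More than 20 points with H3K4me1 higher were found in 0 windows of either cluster in ESCs (background 4.85% of 69489 windows) and in 3 of 13 Hoxc windows and 1 of 11 Hoxd windows in RA cells (background 14.4% of 62849), all 4 with an adjusted p under 0.05 by Fisher's exact test (Benjamini-Hochberg adjusted). None had H3K27ac higher by as much in ESCs (background 1.42%) or RA cells (0.167%). The 3 in Hoxc were at 10 to 20 kb (25.88 points), 30 to 40 kb (31.61 points) and 70 to 80 kb (27.37 points), and that in Hoxd was at 100 to 110 kb (22.53 points).

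These window differences came with a different spread of reads over the bins of a window. The window at 70 to 80 kb of Hoxc shows it: 5mC was 3.28% of 1067 H3K27ac counts and 30.65% of 796 H3K4me1 counts in RA cells, and 829 of those H3K27ac counts lay in the 2 kb from 72 to 74 kb, at 0.8444%. Where the same bins were weighed alike, the difference between the marks there was 0.2211 points over 25 bins. It was 0.1162 points at 10 to 20 kb, 1.5 points at 30 to 40 kb and 8.759 points at 100 to 110 kb of Hoxd. The direction turned in 3 of the 11 Hoxd windows of RA cells, with −1.574 points matched against 11.82 pooled at 40 to 50 kb, −3.894 against 9.083 at 70 to 80 kb and −2.615 against 19.07 at 110 to 120 kb. In ESCs the highest pooled Hoxd difference, 14.07 points at 110 to 120 kb, was −6.72 points matched. All 13 Hoxc windows of RA cells stayed above 0. By this measure 0 windows of either cluster differed by over 20 points, the most among the windows compared being 11.41 points at 90 to 100 kb of Hoxc and 10.96 points at 90 to 100 kb of Hoxd. Over whole clusters the matched difference was −0.939 points in ESCs and 4.94 points in RA cells for Hoxc, and −1.203 and 3.625 points for Hoxd. Over each whole cluster and matched by bin, H3K4me1-bound DNA was thus the slightly more methylated in RA cells, with no test.

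**Figure D4:**
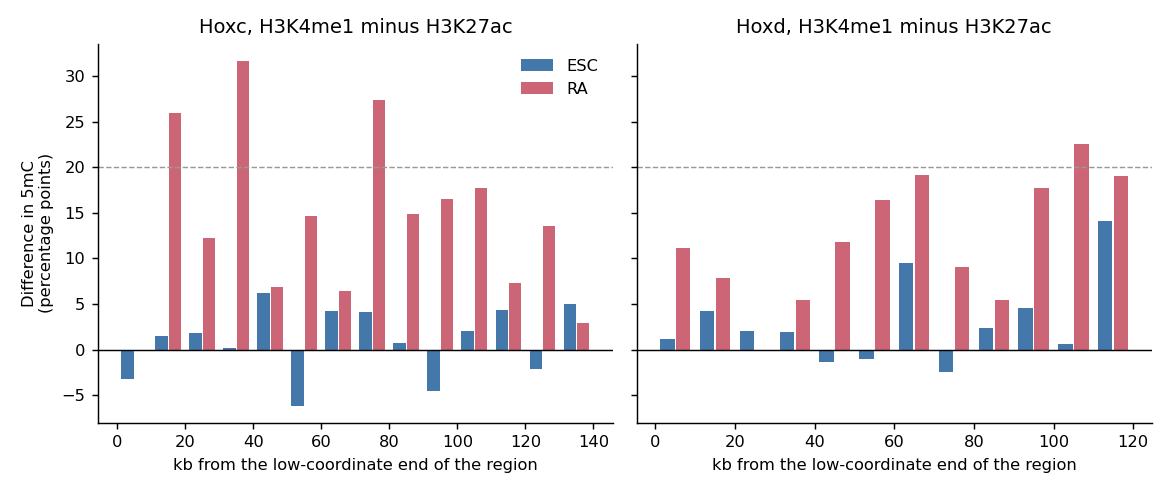
Difference in pooled 5mC between H3K4me1 and H3K27ac (percentage points) in 10-kb windows of Hoxc and Hoxd with at least 100 counts in both marks, by distance in kb from the low-coordinate end, ESC in blue and RA in red, dashed line at 20 points. Red bars are all above 0 in these pooled values and pass the line at 10, 30 and 70 kb of Hoxc (25.88, 31.61 and 27.37 points) and at 100 kb of Hoxd (22.53 points); weighed over the same bins none of these windows passes it and 3 Hoxd windows of RA cells fall below 0.

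The XEN libraries carried marks in their file names that are the reverse of their labels, and the labels were followed. Over the genome, the libraries labelled H3K4me1 had 8.409 and 6.92 times as many counts in RA peaks shared by both marks as in RA peaks of H3K4me1 alone, beside 7.896 for the H3K27ac library of RA cells, and the libraries labelled H3K27ac had 4.202 and 3.827, beside 2.826 for the H3K4me1 library. By this measure the libraries resembled the marks of the file names, so every direction between the marks below turns with that choice. Counts of XEN bins set against the RA or ESC library of the same mark also change, since each XEN library is then set against the other mark. Bins under 4 counts were not listed for XEN. The permutation p-values below rest only on how these libraries can be ordered, and differences between the libraries may be technical.

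Both clusters were more methylated in XEN libraries than in ESC libraries. Over Hoxc the libraries labelled H3K27ac stood at 41.6% of 5240 counts and 42.66% of 7112 (mean 42.13% ± 0.748, SD, n = 2) and those labelled H3K4me1 at 29.1% of 866 and 24.88% of 1427 (26.99% ± 2.985, SD, n = 2). The groups did not overlap, and the difference of −15.14 points (H3K4me1 label minus H3K27ac label) had an exact permutation p of 0.333 (two-sided), the smallest that 2 libraries against 2 can give. Over Hoxd the values were 25.37% of 2657 and 26.25% of 3410 for the label H3K27ac (25.81% ± 0.622, SD, n = 2) and 18.87% of 355 and 32.32% of 427 for the label H3K4me1 (25.6% ± 9.507, SD, n = 2). There the groups overlapped, with a difference of −0.211 points (exact permutation p = 1, two-sided), and the libraries labelled H3K4me1 were the farther apart from each other. Over the genome the libraries labelled H3K27ac had 61.48% and 61.51% and those labelled H3K4me1 47.85% and 49.18%, so both clusters were below the genome in every XEN library.

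Where the same bins were weighed alike, XEN levels were also above those of RA libraries. Against the H3K4me1 library of RA cells, the Hoxc differences were 14.49 and 14.23 points for the libraries labelled H3K27ac and 7.888 and 6.654 points for those labelled H3K4me1. Against the H3K27ac library of RA cells they were 15.85 and 15.95 points, and 5.539 and 5.971 points. In Hoxd all 8 differences of these kinds lay between 4.291 and 13.85 points. The matched XEN value was the higher in each of the 16 comparisons, whichever mark a library held. In pooled values 5 of the 16 went the other way, all against the H3K4me1 library of RA cells: both libraries labelled H3K4me1 in Hoxc (29.1% and 24.88% against 32.61%) and, in Hoxd, both labelled H3K27ac and replicate 1 of those labelled H3K4me1 (25.37%, 26.25% and 18.87% against 27.5%). Against ESC libraries the differences ranged from 16.1 to 31.75 points in Hoxc and from 8.065 to 24.17 points in Hoxd. All these comparisons reuse the same few libraries, and no genome value was matched in this way. Pooled over the genome, XEN libraries labelled H3K27ac stood at 61.48% and 61.51% and those labelled H3K4me1 at 47.85% and 49.18%. The RA libraries stood at 54.83% in H3K4me1 and 38.67% in H3K27ac. Whether the clusters differed from the genome in this was not tested.

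Few single bins were deep enough. With at least 30 counts in both XEN libraries of a label and in the library of that mark, and over 20 points the same way in both XEN libraries, 3 of 11 Hoxc bins and 1 of 3 Hoxd bins were higher than RA under the label H3K27ac (background 20.4% higher, 0.182% lower) and none was lower. Against ESCs it was 3 of 12 and 0 of 4 bins (background 62.6% higher, 0.284% lower). Under the label H3K4me1, 0 of 1 Hoxc bin differed from RA (backgrounds 2.89% higher and 2.15% lower), 0 of 4 from ESCs (26.3% higher and 4.82% lower), and no Hoxd bin was deep enough. These rules are of size, with no test. With marks by file names, 5 of 38 Hoxc bins and 1 of 7 Hoxd bins were higher than RA in H3K4me1 (11.06% of the genome differed). Against ESCs 20 of 36 and 5 of 11 were higher (62.02% differed). In H3K27ac it was then 0 of 4 Hoxc bins against RA (3.092%) and 0 of 3 against ESCs (8.334%), with no Hoxd bin to compare. With only 1 XEN library of the label H3K27ac required, more bins could be compared. Without replicate 1, 8 of 23 Hoxc bins differed from RA (27.85% of the genome), and without replicate 2 it was 5 of 15 (28.94%). Against ESCs it was 9 of 19 and 8 of 16 Hoxc bins (62.75% and 64.44% of the genome), and 3 of 10 Hoxd bins without replicate 1.

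In signal, the libraries labelled H3K27ac gave 228.6 ± 2.458 CPM over Hoxc and 112.8 ± 5.673 over Hoxd (SD, n = 2), and those labelled H3K4me1 gave 81.1 ± 13.87 and 28.21 ± 1.431. Bins under 4 counts are missing from both the cluster and the library total, and their effect on these shares was not measured. The libraries labelled H3K4me1 had their highest 2-kb window of Hoxc at 72 to 74 kb, with 133 and 164 counts and none methylated, the same window as in the H3K27ac library of RA cells. Those labelled H3K27ac had theirs at 66 to 68 kb, with 39.77% of 440 and 40.16% of 498 counts methylated, as in the H3K4me1 library of RA cells (21.34% of 595 counts). The acetylated bin at 72.2 kb held 62 and 72 counts in the libraries labelled H3K4me1 and 9 and 41 in those labelled H3K27ac, with none methylated in any of the 4. Over all 8 libraries it held at most 3 methylated counts in any one.

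**Figure D5:**
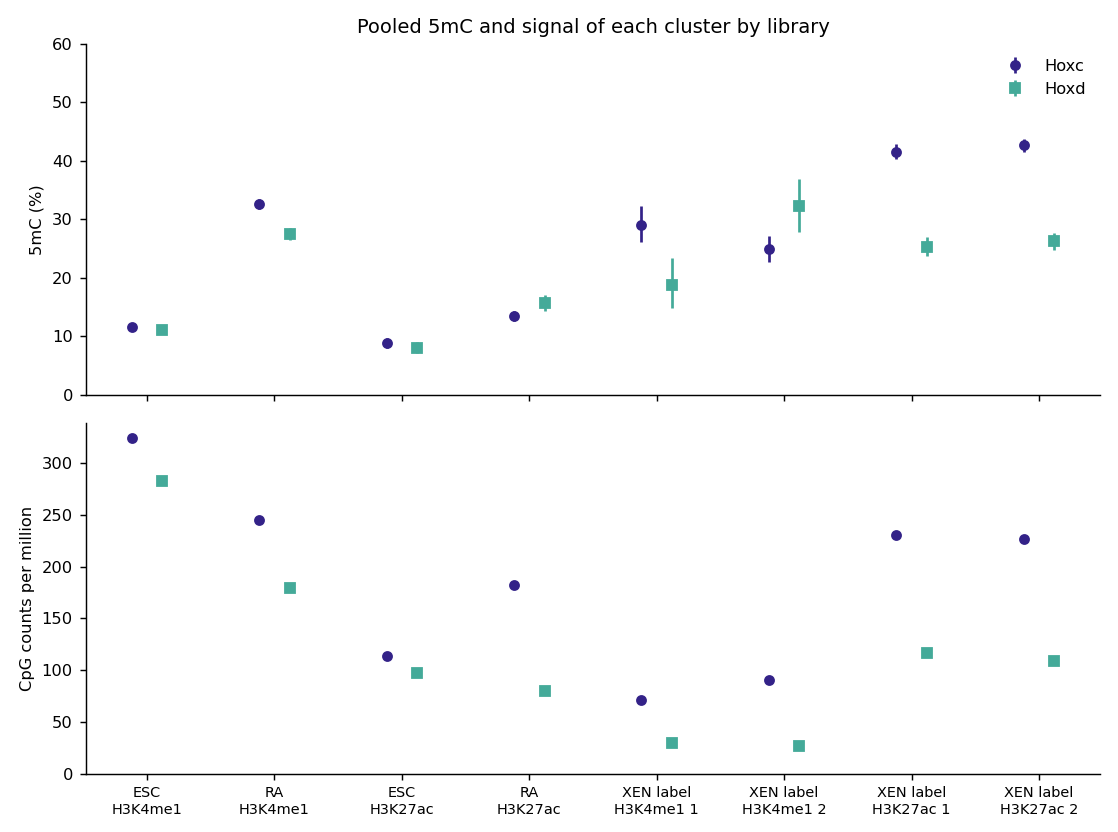
Pooled 5mC (top, percent, with exact 95% intervals for counting error) and CpG CPM (bottom) of Hoxc (circles) and Hoxd (squares) in each of the 8 libraries, with XEN libraries named by their labels. ESC libraries lie lowest in 5mC, at 8.053% to 11.59%, and the XEN libraries labelled H3K27ac are the highest in Hoxc, at 41.6% and 42.66%.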

How the data were processed

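The authors aligned ChIP-BS-seq reads with Bismark and Bowtie, removed reads of mixed CpG state, and deposited, for each 200-bp bin, unscaled counts of CpGs read as methylated or unmethylated, as well as HOMER peaks with a score, which served for ranks inside a list. Methylated counts were taken as the column rare on the mitochondrial genome, and the column order is reversed in XEN files. The paper reports that each experiment was repeated, and whether an ESC or RA file pools these repeats is not given in the sources used here. Groups came from the sample labels. 5mC was methylated over all CpG counts. Bins needed 30 counts, windows 100. Fisher's exact test was adjusted after Benjamini and Hochberg, ran over all tested bins or windows of the genome and was tested on simulated data. The bins named were the 3 with the largest rise and the 2 with the most counts per cluster, mark and state. XEN replicates share numbers across marks with no stated pairing. The members and lists were chosen with earlier results of these data known. The input, H3K36me3 and single-cell data were not used here, the last because identifiers were not paired with gene names. The software was numba 0.67.0, pandas 2.3.3, scipy 1.17.1 and numpy 2.4.6 under Python 3.11.15, with figures by matplotlib 3.10.9.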

Additional observations from a re-analysis of the deposited data

How the results depend on the processing

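Of 172 alternatives to 46 results, 105 gave the same direction and size and 61 moved a value past its error or a count by over 1.5 times, and 6 turned the direction. The cause was not tested in any.

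The pooled rise of 5mC was 17.48 points (Hoxc) and 13.32 points (Hoxd) in H3K4me1 and 0.2706 and −1.79 points in H3K27ac over bins with at least 30 counts in both. As unweighted means over such bins it was 17.0, 13.54, 2.202 and −1.521 points. The Mantel-Haenszel differences over bins, added after seeing the data, were 18.82 points for Hoxc in H3K4me1 and 7.606 and 5.105 points in H3K27ac. In peaks the Hoxd H3K27ac rise was 5.586 points. The bins higher in H3K4me1 were 30 of 37 in Hoxc and 9 of 18 in Hoxd at a minimum of 60 counts (61.01% of the genome), and 42 of 110 and 21 of 85 with over 20 points (41.41%). Without the peak requirement 1 of 10 Hoxd bins was lower in H3K27ac (1.066% of the genome). Bins of RA cells with H3K4me1 over 20 points higher became 3 of 45 in Hoxc at a minimum of 20 counts (6.131% of the genome), and 0 in both clusters over 30 points, with Fisher's exact test added or at 60 counts, where 3 Hoxc bins and no Hoxd bin were left. In 10-kb windows the 3 and 1 became 0 and 0 by the Mantel-Haenszel difference.

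With XEN marks by file names the difference between the marks was 15.14 points in Hoxc and 0.2108 points in Hoxd. Leaving out each library in turn gave −17.25 to −13.03 points in Hoxc and −6.933 to 6.512 points in Hoxd, where the sign turned without replicate 2 of the label H3K27ac (0.2289) or replicate 1 of the label H3K4me1 (6.512). With a replicate block the values stayed at −15.14 and −0.2108 points; the shared number is not a stated pairing. By file names, bins that differed between XEN and RA were 5 of 38 in Hoxc and 1 of 7 in Hoxd for H3K4me1 (11.06% of the genome), and 0 of 4 in Hoxc for H3K27ac (3.092%), with no Hoxd bin to compare. Against ESCs they were 20 of 36 and 5 of 11 (62.02%), and 0 of 3 in Hoxc for H3K27ac (8.334%). Under the label H3K27ac, bins that differed from RA were 8 of 30 and 2 of 10 at 20 counts (19.79%) and 0 of 11 and 0 of 3 over 30 points (7.082%). Those that differed from ESCs were 12 of 27 and 4 of 14 at 20 counts (59.94%), and 1 of 12 in Hoxc over 30 points (50.73%). At 60 counts no bin was left but 1 of Hoxd against ESCs, which made these counts 0. Without 1 XEN library the Hoxc counts were 5 to 8 against RA, of 15 and 23 bins, and 8 to 9 against ESCs, of 16 and 19, and in Hoxd 0 to 3 against ESCs, of 5 and 10. Under the label H3K4me1, 1 of 9 Hoxc bins differed from ESCs at 20 counts (36.41% of the genome). No bin had at least 30 counts in all 4 XEN libraries, so that alternative gave no value.

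Scaled to counts in own peaks, the log2 signal ratios were −0.31 and −0.57 for H3K4me1 and 0.60 and −0.35 for H3K27ac (Hoxc, Hoxd). Scaled to counts outside own peaks they were −0.77, −1.02, 0.83 and −0.12. With unmethylated counts of bins and libraries alone H3K4me1 gave −0.35 and −0.51. With the upper 50% of peaks by score, H3K27ac peaks covered 6.166% of Hoxc in ESCs, 1.381% and 1.664% of Hoxd in ESCs and RA cells, and H3K4me1 peaks 18.17% of Hoxd in RA cells. Depth left 15 Hoxc and 3 Hoxd bins to test in H3K27ac between RA and ESC, and 11 or fewer bins of a cluster to compare between XEN and RA by label.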
